A study of Mus musculus with 67 samples.

Results

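The libraries described here are 6 liver mRNA libraries of mice without the clock repressor genes Cry1 and Cry2, sampled at zeitgeber times ZT15, ZT18 and ZT21, in the dark phase. They were chosen by genotype and time alone, and they are 6 of the 67 libraries of the series. The time-restricted group (FT) had 3 libraries, 1 at each time, and the ad libitum group (FA) had 3 at the same times. All 6 libraries came from C57BL/6 mice of 24 weeks of age with the genotype Cry1Cry2 double KO (CryDKO). Both groups had been on a high-fat diet (HFD) for 12 weeks, so the diet is shared and the labels differ in its timing. The labels name no tissue for the Cry deletion, whereas the other mutants of the series, Bmal1-liverKO and Rev-erbα/β-liverdoubleKO (ReverbLDKO), are named as liver deletions. Neither the hours of the feeding window nor the number of animals behind a library is stated in the labels. Each p-value therefore reflects the scatter among libraries, which may be technical. In CryDKO, with 1 library per time and feeding, that scatter also holds any change of the feeding difference between times of a phase.

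The mammalian clock is a feedback loop in which BMAL1 (gene Arntl) and CLOCK switch on genes with E-box sequences, among them Per and Cry, and the CRY and PER proteins return to the nucleus to repress BMAL1 and CLOCK. Animals without both CRY proteins lose this repression and are arrhythmic in constant darkness. In liver, feeding also sets the time of many transcripts: insulin and SREBP drive lipid synthesis after a meal, and glucagon and PPAR alpha drive gluconeogenesis and fat oxidation in a fast. The comparison of FT with FA in CryDKO livers therefore asks what the timing of food does to liver transcripts at night where the clock loop is broken.

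The authors deposited FPKM (fragments scaled by exon length and by mapped reads), so levels can be compared between genes. Reads recovered from the low values put the FT libraries at 10.05 to 17.413 M reads with a median of 13.81 M, and the FA libraries at 16.553 to 17.921 M with a median of 16.981 M. The slope of expression on GC content was 0.024 to 0.054 in FT and -0.017 to 0.089 in FA, and mitochondrial transcripts took 7.55 to 8.82% of FPKM in FT and 7.1 to 8.18% in FA. Hepatocyte marker genes summed to 56578 to 78330 FPKM in FT and 68870 to 77996 FPKM in FA, and 12 of 15 pancreas markers were listed at 0 in all 6 libraries. The deleted genes were still read: Cry1 had 12.48, 14.04 and 11.1 FPKM in FT at ZT15, ZT18 and ZT21, against 9.78, 10.3 and 7.90 in FA. Cry2 had 2.85, 2.65 and 2.73 FPKM in FT and 3.22, 2.77 and 2.12 in FA. Over the 51 libraries of the other genotypes Cry1 was at 1.66 to 29.6 FPKM and Cry2 at 1.23 to 8.01 FPKM. An FPKM value sums all exons and the labels do not name the deleted ones, so these levels do not check the deletion, and directions below are those of libraries labelled CryDKO.

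Very few genes passed the test of feeding in these livers at night. Of 9944 genes tested, 2 were called (0.0201%) at an adjusted p under 0.05 by limma with Benjamini-Hochberg adjustment, 1 higher in FT (0.0101%) and 1 lower (0.0101%). An unadjusted p under 0.05 was reached by 287 genes (2.89%), 111 of them higher in FT (1.12%) and 176 lower (1.77%). The 3 FT libraries all lay above the 3 FA libraries for 462 genes (4.65%) and all below for 565 (5.68%). The median log2 difference (FT minus FA, on the log2(FPKM + 1) scale) over all genes was 0.002, and 74 genes had a mean difference of at least 2-fold. Single times differed more: 186 genes differed by at least 2-fold at ZT15, 115 at ZT18 and 360 at ZT21. At all 3 times and in the same direction, 3 genes were at least 2-fold higher in FT (Scd1, Cyp4a10 and Cyp4a14) and 4 were at least 2-fold lower (Tff3, Egr1, a mitochondrial tRNA gene and a predicted gene), none of which was called.

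Both called genes are named here after their values were seen, since the rule for naming genes asked for a higher mean or left out unnamed genes. Pttg1, which encodes securin, the inhibitor of separase that holds sister chromatids together, had 5.36, 4.08 and 10.6 FPKM in FT at ZT15, ZT18 and ZT21, and 0.685, 0.765 and 5.50 FPKM in FA. FT was higher at each time, but the ZT21 library of FA was above the FT libraries of ZT15 and ZT18, so the groups overlap. Pttg1 averaged 6.69 ± 3.48 FPKM in FT and 2.32 ± 2.76 FPKM in FA (SD, n = 3 each), and it rose by 1.43 ± 0.24 (log2 difference ± SE, limma adjusted p = 0.0134). The gene lies on chromosome 11 (GRCm38, 43420250 to 43426251, minus strand). Protein-coding 4833420G17Rik, which has no assigned name or role here, had 1.34, 4.10 and 2.31 FPKM in FT and 6.66, 8.04 and 7.34 FPKM in FA. All FT libraries lay below all FA libraries, and the log2 level of the gene fell by 1.29 ± 0.14 (adjusted p = 6.1e-06), at means of 2.58 ± 1.40 FPKM in FT and 7.35 ± 0.69 FPKM in FA. It lies on chromosome 13 (GRCm38, 119462768 to 119486120, plus strand).

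The calls lean on a spread pooled over all 67 libraries, and both genes also varied between the CryDKO libraries outside these times. Over the 16 CryDKO libraries Pttg1 ranged between 0.210 and 13.45 FPKM (median 5.43), against 7.63 to 27.0 FPKM with a median of 12.1 in the 51 libraries of the other genotypes. In CryDKO it was under 1 FPKM in FT at ZT3 and ZT9 and in FA at ZT3, ZT12, ZT15 and ZT18, and at 4.08 FPKM or more in the other 10 libraries. 4833420G17Rik ranged between 1.34 and 8.04 FPKM in CryDKO and between 6.54 and 13.48 FPKM elsewhere. In CryDKO it stood at 5.70 FPKM or more only in FA at ZT12, ZT15, ZT18 and ZT21, and at 1.34 to 4.10 FPKM in the other 12. With only the 16 CryDKO libraries or only these 6 in the fit, 0 genes were called by limma, and 417 and 747 had an unadjusted p under 0.05. The log2 differences were the same in those fits, but adjusted p was 1.0 and 0.589 for Pttg1 and 1.0 and 0.563 for 4833420G17Rik. Without ZT15 Pttg1 was at 1.18 (limma adjusted p = 0.43) and without ZT18 at 1.38 (adjusted p = 0.19), and 4833420G17Rik was called whichever time was left out.

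**Figure D1:**
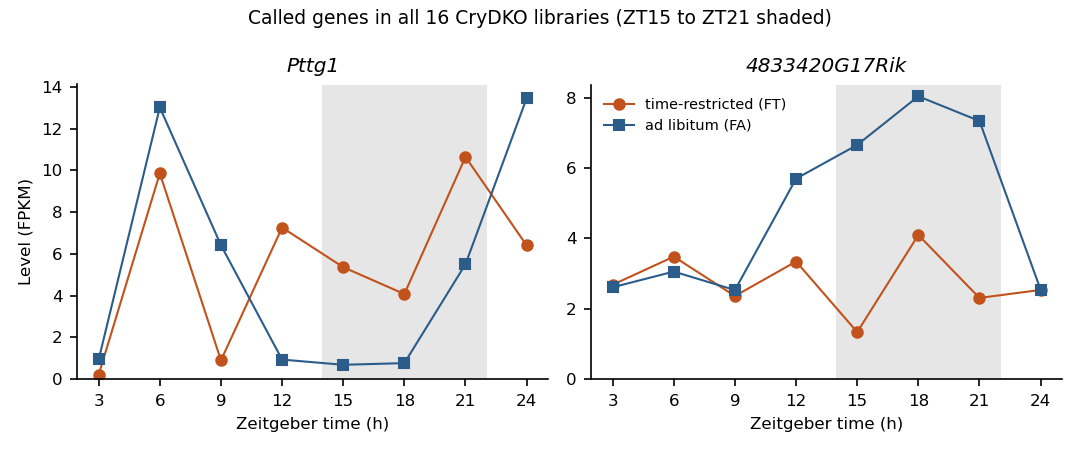
Levels in FPKM of Pttg1 and 4833420G17Rik in the 16 CryDKO libraries by zeitgeber time, FT and FA, 1 library per point, with ZT15 to ZT21 shaded. 4833420G17Rik is at 1.34 to 4.10 FPKM in the shaded FT libraries and 6.66 to 8.04 FPKM in the FA ones, while the Pttg1 values of FT (4.08 to 10.6) and FA (0.685 to 5.50) overlap.

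The promoters of the called genes are shown because the genotype concerns a loop that acts through short promoter sequences. They are the 250 bases before the RefSeq start site (GRCm38.p6), at chr11:43425982-43426231 on the minus strand for Pttg1 and chr13:119462509-119462758 on the plus strand for 4833420G17Rik. Capitals mark the unfolded protein element CCACG or, on the other strand, CGTGG.
Pttg1: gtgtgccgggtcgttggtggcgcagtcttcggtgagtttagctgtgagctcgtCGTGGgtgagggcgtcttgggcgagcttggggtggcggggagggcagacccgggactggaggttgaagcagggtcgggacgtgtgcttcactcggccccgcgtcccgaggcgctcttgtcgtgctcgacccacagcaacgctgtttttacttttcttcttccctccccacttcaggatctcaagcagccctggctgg
4833420G17Rik: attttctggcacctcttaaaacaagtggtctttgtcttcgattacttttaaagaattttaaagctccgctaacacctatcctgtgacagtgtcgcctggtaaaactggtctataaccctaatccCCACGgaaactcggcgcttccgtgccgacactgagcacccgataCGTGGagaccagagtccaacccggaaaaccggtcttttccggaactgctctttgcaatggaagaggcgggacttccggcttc
A window from 250 bases before to 50 after each start site was searched on both strands for 7 motifs. CCACG occurred 1 time in the Pttg1 window, at -197 from the start site, and 2 times in that of 4833420G17Rik, at -126 and -82. It was found in 32.7% of 27025 promoters, so a match is common. The E-box CACGTG, bound by BMAL1 and CLOCK and found in 7.24% of promoters and in 5 of 16 core clock promoters (31.2%), was not in these windows, nor were the D-box TTATGTAA (0.955% of promoters) or the ROR element TAGGTCA (2.64%). The other motifs searched were the heat shock element GAANNTTC, the amino acid response element TGATGNAA (4.06% of promoters, 5 of 15 ATF4 list promoters) and the STAT element TTCNNNGAA (8.47%, and 7 of 20 acute phase promoters). An E-box that follows a C also holds the letters CCACG. The absence of a match says only that these letters are not in the window. The RefSeq start site of Pttg1 lies inside the GENCODE span of the gene.

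None of the 18 core clock genes tested was called, and their median log2 difference was 0.007, against 0.002 over all genes. Cry1 was the only one of the 18 whose groups did not overlap, 0.39 ± 0.18 higher in FT (adjusted p = 1). Over all genes, 4.65% had all FT libraries above all FA libraries, so 1 of 18 is near that share. The activator Arntl was at 4.24, 5.97 and 6.35 FPKM in FT and 5.23, 4.61 and 3.63 in FA. Npas2, a paralog of Clock, was listed at 0 in all 6 libraries. The repressor Per2 was at 12.48, 12.8 and 10.6 FPKM in FT and 9.54, 12.4 and 6.38 in FA, the output factor Dbp at 22.3, 24.3 and 30.6 in FT and 32.2, 28.7 and 37.0 in FA, and the nuclear receptor Nr1d1 at 9.26, 11.9 and 11.5 in FT and 15.4, 10.4 and 14.2 in FA. In Arntl, Per2, Dbp and Nr1d1 the FT and FA libraries overlapped.

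Genes of fatty acid synthesis had the highest median difference of the pathway lists, and none passed. Of 18 tested, 15 were higher in FT. An unadjusted p under 0.05 was reached by 4, all higher in FT, where 1.12% of all genes did so. In 5 all FT libraries lay above all FA libraries, where 4.65% of all genes did. Elovl6, which elongates palmitate, had 16.3, 23.8 and 20.1 FPKM in FT and 9.17, 11.2 and 8.06 FPKM in FA. The groups did not overlap, and the difference was 1.00 ± 0.33 (adjusted p = 1). Fatty acid synthase, Fasn, had 46.8, 42.9 and 50.2 FPKM in FT and 33.1, 27.7 and 13.8 in FA, a difference of 0.96 ± 0.57 (adjusted p = 1). Thrsp, a lipogenic factor induced by carbohydrate, had 375, 613 and 397 FPKM in FT and 305, 267 and 97.1 in FA, a difference of 1.17 ± 0.48 (adjusted p = 1). Both kept FT above FA at every time, with FA lowest at ZT21. The glycerol phosphate acyltransferase Gpam, at 46.5, 46.5 and 65.6 FPKM in FT and 40.5, 29.5 and 24.3 in FA, and acetyl-CoA carboxylase Acaca, at 1.67, 1.91 and 1.86 in FT and 1.49, 1.04 and 1.05 in FA, also did not overlap.

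Other enzymes of the same route did overlap. The desaturase Scd1 had 864, 101 and 376 FPKM in FT and 398, 45.0 and 78.2 in FA, lowest at ZT18 in both groups, and its difference was 1.51 ± 0.68 (adjusted p = 1). ATP citrate lyase, Acly, had 39.8, 50.3 and 87.0 FPKM in FT and 48.3, 33.0 and 22.2 in FA, and the regulator Srebf1 had 51.9, 26.1 and 38.2 in FT and 30.0, 30.1 and 17.2 in FA. The list's median was 0.145 at ZT15, 0.428 at ZT18 and 0.828 at ZT21, and 0.534 over the 3 times (0.297 without ZT21). Its summed level was 2289, 1797 and 2226 FPKM in FT and 1783, 1256 and 1043 FPKM in FA. The sums of FT all exceed those of FA, at the smallest p that 3 against 3 libraries allow (exact permutation test, two-sided, p = 0.1). Scd1, whose groups overlap, gave 864 of the 2289 FPKM of FT at ZT15. Sums of 31 lists were tested in this way, with no adjustment for their number.

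**Figure D2:**
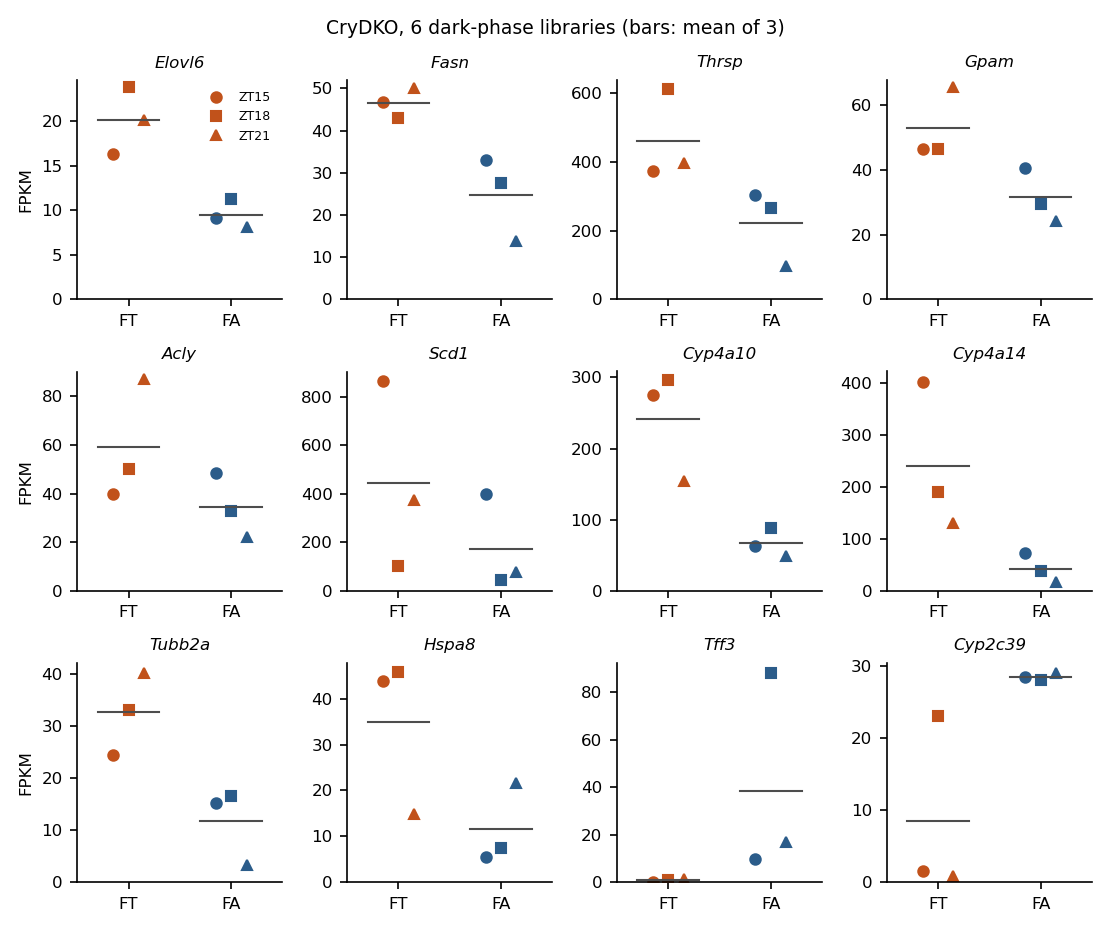
Levels in FPKM of 12 named genes in the 3 FT and 3 FA libraries, with the marker shape giving the zeitgeber time and the bar the mean of 3. Elovl6, Fasn, Thrsp, Gpam, Cyp4a10, Cyp4a14 and Tubb2a have all FT points above all FA points, Tff3 and Cyp2c39 all below, and Acly, Scd1 and Hspa8 overlap.

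Of 27 genes of fatty acid oxidation tested none was called, 21 were higher in FT and the median was 0.209. All FT libraries lay above all FA libraries for 4 of them (Cpt2, Acadm, Cyp4a10 and Cyp4a14), where 4.65% of all genes did. Cyp4a10 had 276, 296 and 154 FPKM in FT and 63.1, 88.5 and 49.5 in FA, a difference of 1.82 ± 1.03 (adjusted p = 1). Cyp4a14 had 403, 191 and 130 FPKM in FT and 72.1, 38.1 and 17.1 in FA, a difference of 2.54 ± 1.65 (adjusted p = 1). Both had FT above FA at each time and a wide error, and their sequences are alike enough that the counting could divide reads between members of the family. The mitochondrial enzymes Cpt2 and Acadm, a carnitine palmitoyltransferase and a medium-chain acyl-CoA dehydrogenase, differed by less, at 0.21 ± 0.20 and 0.33 ± 0.22. The acyl-CoA thioesterase Acot4 had 23.2, 10.6 and 18.4 FPKM in FT and 13.4, 6.38 and 9.63 in FA, higher in FT at each time with overlap between the groups. Carnitine palmitoyltransferase Cpt1a, the gate of mitochondrial oxidation, had 103, 65.8 and 84.6 FPKM in FT and 84.9, 95.1 and 143 in FA. The list summed to 4285, 3404 and 3080 FPKM in FT and 2973, 2872 and 2900 FPKM in FA, again without overlap (exact permutation p = 0.1). Among lipid droplet genes the lipase inhibitor G0s2 had 259, 82.3 and 222 FPKM in FT and 34.5, 139 and 44.1 in FA (1.48 ± 0.80, adjusted p = 1), high in FT at ZT15 and ZT21 and in FA at ZT18.

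Among glucose genes, 18 of which were tested and none called (median 0.116), Igfbp1, a secreted protein induced in fasting, had 4.41, 6.03 and 4.57 FPKM in FT and 42.0, 2.51 and 22.7 in FA. The gluconeogenic enzyme gene Pck1 had 171, 485 and 228 FPKM in FT and 505, 321 and 477 in FA. Both were highest in FA at ZT15, yet lower in FA than in FT at ZT18, and the groups overlapped. The glycogen targeting subunit Ppp1r3c was at 62.7, 55.6 and 70.8 FPKM in FT and 54.8, 59.8 and 13.3 in FA. In bile acid synthesis (15 tested, none called, median -0.051) the rate-limiting enzyme Cyp7a1 had 86.5, 38.8 and 43.4 FPKM in FT and 27.7, 30.2 and 76.0 in FA, so ZT21 went the other way from ZT15 and ZT18.

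In cholesterol synthesis the difference between feedings changed direction between times. None of 25 genes tested was called and the median was 0.212, but it was -1.274 at ZT15, where 1 of 25 was higher in FT, 0.812 at ZT18, where 24 were, and 1.178 at ZT21, where all 25 were. Without ZT21 the median was -0.282. HMG-CoA synthase, Hmgcs1, had 11.7, 115 and 214 FPKM in FT and 74.0, 49.5 and 65.8 in FA. Squalene epoxidase, Sqle, had 4.76, 38.2 and 60.0 FPKM in FT and 28.8, 21.1 and 27.1 in FA. In both genes the FT libraries held both the lowest and the highest level of the 6. The FT library of ZT15 was the lowest of the 6 for 21 of 25 genes (84.0%, against 20.8% of all genes), and the FT library of ZT21 the highest for 24 (96.0%, against 16.2%). Each of these times is 1 library per feeding, so time and library cannot be told apart.

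**Figure D3:**
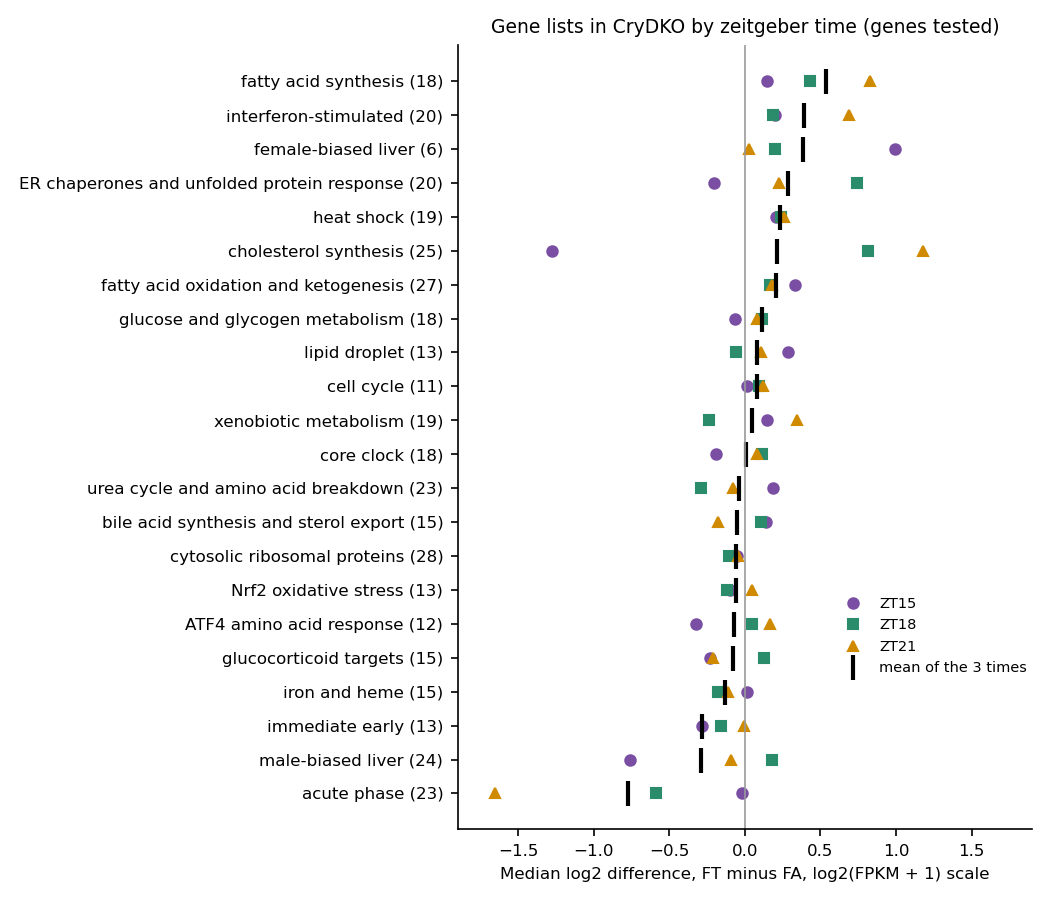
Median log2 difference (FT minus FA, log2(FPKM + 1) scale) of each gene list at ZT15, ZT18 and ZT21 and for the mean of the 3 times, with the number of genes tested in brackets. Cholesterol synthesis runs from -1.274 at ZT15 to 1.178 at ZT21 and the acute phase list from -0.017 to -1.656, while heat shock stays between 0.208 and 0.257.

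Of 19 heat shock genes tested none was called and 18 were higher in FT. In none of the 19 did all FT libraries lie above all FA libraries, where 4.65% of all genes did. An unadjusted p under 0.05 was reached by 5, all higher in FT, where 1.12% of all genes did so. The median was 0.208, 0.238 and 0.257 at ZT15, ZT18 and ZT21. The FT library of ZT18 was the highest of the 6 for 13 of 19 genes (68.4%, against 18.9% of all genes). The FA library of ZT21 was the lowest for 10 (52.6%, against 21.3%). The list summed to 878 to 1302 FPKM in FT and 699 to 1088 FPKM in FA, with overlap (exact permutation p = 0.4). Hspa8, the constitutive HSC70 chaperone, had 43.9, 45.7 and 14.9 FPKM in FT and 5.57, 7.57 and 21.6 in FA. FT was far above FA at ZT15 and ZT18 and below it at ZT21, so the groups overlap (1.57 ± 0.45, adjusted p = 0.748). Without ZT21 it was 2.61 and called (limma adjusted p = 0.0087). The other libraries of CryDKO had 1.06 to 18.3 FPKM of Hspa8, and the 51 libraries of the other genotypes had 12.6 to 318 FPKM with a median of 45.5. The FT libraries of ZT15 and ZT18 were near that median, which pools all times. They were below the dark-phase medians of WT (101 in FT and 103 in FA) and of ReverbLDKO (63.6 in FT and 56.8 in FA). The HSP90 co-chaperone Fkbp4 had 88.6, 139 and 104 FPKM in FT and 74.2, 103 and 55.9 in FA (0.52 ± 0.20, adjusted p = 1), and the HSP110 gene Hsph1 24.6, 27.7 and 11.1 in FT and 15.9, 22.6 and 4.33 in FA (0.69 ± 0.31, adjusted p = 1). Stip1 and the HSP40 gene Dnaja1 differed by 0.44 ± 0.18 (adjusted p = 1) and 0.48 ± 0.23 (adjusted p = 1). In these 4 genes FT was above FA at each time, although the groups overlapped.

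The heat shock element GAANNTTC, bound by HSF1, was found in 10 of 15 promoters of the list that had a sequence (66.7%), against 7.95% of all promoters. It is shown in capitals in the 250 bases before the start site of Fkbp4 (chr6:128438657-128438906, minus strand) and Dnaja1 (chr4:40722218-40722467, plus strand, both GRCm38.p6, from RefSeq), at -151 and -124, as the members with an unadjusted p under 0.05 that carry it upstream of the start site.
Fkbp4: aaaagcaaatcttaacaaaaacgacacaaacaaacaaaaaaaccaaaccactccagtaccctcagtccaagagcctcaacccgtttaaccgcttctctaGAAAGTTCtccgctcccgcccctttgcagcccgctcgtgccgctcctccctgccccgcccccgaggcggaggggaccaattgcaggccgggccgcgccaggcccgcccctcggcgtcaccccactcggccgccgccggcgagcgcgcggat
Dnaja1: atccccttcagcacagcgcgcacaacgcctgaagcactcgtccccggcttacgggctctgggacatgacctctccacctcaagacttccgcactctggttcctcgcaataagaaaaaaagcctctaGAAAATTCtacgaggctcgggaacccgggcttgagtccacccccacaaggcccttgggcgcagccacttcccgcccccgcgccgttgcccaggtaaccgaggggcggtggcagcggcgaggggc
A match is a description of the sequence and not a site of binding. Hsph1 held the same letters at 42 bases after its start site.

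Chaperones of the endoplasmic reticulum were highest in 1 library. Of 20 genes tested none was called, 17 were higher in FT and the median was 0.285, at -0.202 at ZT15, 0.744 at ZT18 and 0.224 at ZT21. The FT library of ZT18 was the highest of the 6 for 17 of 20 genes (85.0%, against 18.9% of all genes). BiP, Hspa5, had 355, 718 and 293 FPKM in FT and 316, 391 and 157 in FA (0.65 ± 0.42, adjusted p = 1). Creld2 had 62.7, 215 and 46.1 FPKM in FT and 46.0, 83.1 and 39.3 in FA, and Sdf2l1 39.2, 156 and 68.0 in FT and 45.6, 56.1 and 57.2 in FA. Xbp1, which encodes a transcription factor of the response, went the other way, at 83.8, 109 and 104 FPKM in FT and 114, 121 and 139 in FA, with FT below FA. This library also had the lowest depth of the 6, at 10.05 M reads, and the part of depth in the result was not tested.

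Interferon-stimulated genes stood highest in the FT library of ZT21. Of 20 tested none was called and 19 were higher in FT. In none of the 20 did all FT libraries lie above all FA libraries, where 4.65% of all genes did. An unadjusted p under 0.05 was reached by 5, all higher in FT, where 1.12% of all genes did so. The median was 0.393. It was 0.143 without ZT21. The list summed to 228 to 788 FPKM in FT and 206 to 406 FPKM in FA, with overlap (exact permutation p = 0.4). Ifit1, an RNA-binding antiviral protein, had 6.21, 19.7 and 51.7 FPKM in FT and 3.19, 14.3 and 15.3 in FA (0.97 ± 0.31, adjusted p = 1). Isg15, the ubiquitin-like modifier, had 8.68, 32.1 and 134 FPKM in FT and 9.40, 21.7 and 31.0 in FA. Ifit3 had 5.82, 11.7 and 46.3 FPKM in FT and 4.22, 9.35 and 14.1 in FA. In each of these genes the FT library of ZT21 was the highest and the groups overlapped. The same library was the highest for 19 of 20 genes of the list (95.0%, against 16.2% of all genes), and the FA library of ZT15 the lowest for 15 (75.0%, against 18.3%).

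The acute phase list had the lowest median of the pathway lists, with most of the difference at ZT21. None of 23 genes tested was called, 21 were lower in FT, and the median was -0.771, or -0.373 without ZT21. At ZT15 it was -0.017, at ZT18 -0.587 and at ZT21 -1.656, where none of 23 was higher in FT. The list summed to 12077 to 13610 FPKM in FT and 13200 to 37176 FPKM in FA, with overlap (exact permutation p = 0.2). Serum amyloid A genes are induced in hepatocytes by interleukin 6 and are near-identical in sequence, so single members are uncertain. Saa1 had 46.8, 179 and 52.1 FPKM in FT and 68.1, 232 and 2161 in FA (-2.08 ± 1.28, adjusted p = 1), and Orm2 5.47, 6.88 and 3.99 in FT and 6.73, 21.1 and 115 in FA. Lipocalin 2, Lcn2, had 1.53, 4.18 and 2.61 FPKM in FT and 2.56, 21.7 and 48.8 in FA. The FA library of ZT21 was the highest of the 6 for all 23 genes, where it was the highest for 24.3% of all genes. It also held the most of the metallothionein Mt1, at 106, 6.19 and 5.73 FPKM in FT and 10.3, 22.7 and 438 in FA.

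**Figure D4:**
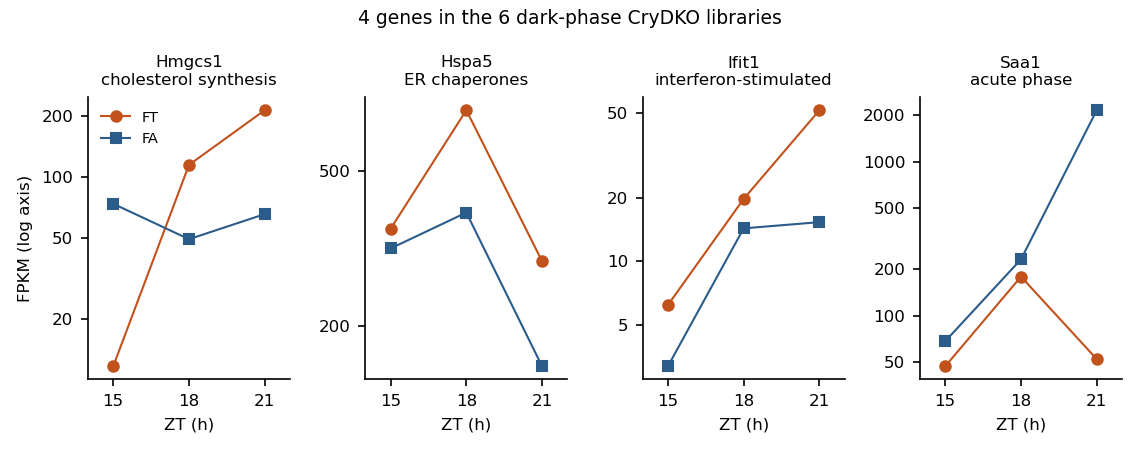
Levels in FPKM on a log axis of Hmgcs1, Hspa5, Ifit1 and Saa1 at ZT15, ZT18 and ZT21 in FT and FA, 1 library per point. Hmgcs1 crosses (11.7 in FT and 74.0 in FA at ZT15, 214 and 65.8 at ZT21), Hspa5 peaks in FT at ZT18 (718), Ifit1 in FT at ZT21 (51.7) and Saa1 in FA at ZT21 (2161).

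Immediate early genes were lower in FT at ZT15 and ZT18, with list medians of -0.283 and -0.156. At ZT21 the median was -0.003, and 6 of 13 were higher in FT. Of 13 tested none was called, 12 were lower and 4 had all FT libraries below all FA libraries, where 5.68% of all genes did, and the median was -0.281. Egr1, a transcription factor induced within minutes of stimulation, had 0.892, 1.47 and 5.44 FPKM in FT and 4.20, 4.16 and 12.7 in FA (-1.20 ± 0.49, adjusted p = 1). FT was below FA at each time, with an overlap between FT at ZT21 and FA at ZT15 and ZT18. Junb had 4.65, 6.98 and 5.93 FPKM in FT and 9.35, 7.90 and 10.7 in FA, without overlap. The list summed to 89.0, 84.3 and 83.3 FPKM in FT and 122, 98.6 and 103 FPKM in FA (exact permutation p = 0.1). Of 28 cytosolic ribosomal protein genes tested none was called, 19 were lower in FT and 9 higher, with a median of -0.057. All FT libraries lay below all FA libraries for 9 of them and above for 1, where 5.68% and 4.65% of all genes did.

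Genes with a sex bias in liver, which follow growth hormone pulses, were set apart in 1 library. Of 24 male-biased genes tested none was called and the median was -0.292, at -0.758 at ZT15, 0.177 at ZT18 and -0.089 at ZT21. The FT library of ZT15 was the lowest of the 6 for 17 of them (70.8%, against 20.8% of all genes) and the highest for 5 of 6 female-biased genes tested (83.3%, against 16.3%). The bile acid hydroxylase Cyp7b1 had 60.4, 287 and 159 FPKM in FT and 197, 278 and 369 in FA, and the female-biased Cyp2b9 166, 28.2 and 80.1 in FT and 56.1, 40.1 and 31.3 in FA. The sexes of the mice are not given in the labels.

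In the other lists none of the genes was called. Their medians, against 0.002 over all genes, were -0.07 for the ATF4 amino acid response (12 tested), -0.131 for iron and heme (15), 0.048 for xenobiotic metabolism (19), -0.04 for the urea cycle and amino acid breakdown (23), -0.062 for the Nrf2 oxidative stress list (13), -0.078 for glucocorticoid targets (15), 0.08 for the cell cycle (11) and 0.083 for lipid droplets (13). Only 2 cold-inducible genes were tested, with a median of -0.228. The ATF4 list summed to 367 to 410 FPKM in FT and 292 to 351 FPKM in FA, without overlap (exact permutation p = 0.1). Of its 12 genes tested, 5 were higher in FT and 7 lower. All FT libraries lay above all FA libraries for 1, where 4.65% of all genes did. Cth, which gave much of the sum, had 204, 163 and 155 FPKM in FT and 143, 152 and 86.0 in FA. Single members were uneven. The glutathione-degrading enzyme gene Chac1, an ATF4 target, had 0.244, 0.319 and 0.408 FPKM in FT and 1.63, 0.311 and 5.34 in FA (-1.08 ± 0.41, adjusted p = 1). Hepcidin, Hamp, the hormone that limits iron export, had 581, 1150 and 436 FPKM in FT and 459, 150 and 1397 in FA. Transferrin receptor, Tfrc, had 10.6, 22.1 and 11.3 FPKM in FT and 12.6, 17.6 and 2.89 in FA. In Chac1, Hamp and Tfrc the groups overlapped, and the FA library of ZT21 held the highest Chac1 and Hamp and the lowest Tfrc.

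Further genes did not pass but had no overlap between FT and FA, an unadjusted p under 0.01 and a mean of at least 5 FPKM, and are given with their values. The tubulin gene Tubb2a had 24.6, 33.1 and 40.3 FPKM in FT and 15.2, 16.6 and 3.31 in FA (1.62 ± 0.43, adjusted p = 0.611). Alanine aminotransferase Gpt2 had 93.7, 85.5 and 78.9 FPKM in FT and 56.7, 74.3 and 57.1 in FA (0.46 ± 0.16, adjusted p = 1), and the sphingosine phosphate receptor S1pr1 43.2, 41.7 and 39.3 in FT and 29.7, 35.0 and 19.7 in FA (0.58 ± 0.19, adjusted p = 1). Fam35a and Ppp2r5e, a regulatory subunit of phosphatase 2A, were also higher, by 0.82 and 0.69. On the lower side, trefoil factor Tff3 had 0.162, 0.848 and 1.6 FPKM in FT and 9.79, 87.9 and 17.1 in FA (-3.87 ± 1.10, adjusted p = 0.748). The cytochrome gene Cyp2c39 had 1.59, 23.2 and 0.935 FPKM in FT and 28.6, 28.2 and 29.1 in FA (-2.58 ± 0.68, adjusted p = 0.611). In both genes all FT libraries lay below all FA libraries, closely so for Cyp2c39 at ZT18. Cyp2c39 is 1 of a near-identical family, and it was at 3.56 FPKM or less in the 51 libraries of the other genotypes. Over all 8 CryDKO libraries of each feeding it ranged between 0.368 and 53.6 FPKM in FT and between 0.990 and 118.5 FPKM in FA. The histone H1 gene Hist1h1c had 15.2, 10.8 and 14.7 FPKM in FT and 16.2, 24.3 and 57.1 in FA, and Timd4, a phosphatidylserine receptor of Kupffer cells, 4.49, 6.25 and 7.31 in FT and 9.42, 9.91 and 9.50 in FA. Igkv6-32, Brap, Pcmtd2, Tbc1d15, Slc17a5 and Otud5 had log2 differences of -1.55, -0.57, -0.50, -0.47, -0.43 and -0.35, in that order.

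Markers of other liver cells were on balance lower in FT, but unevenly between times. All 12 immune cell markers tested were lower, with a median of -0.302, and the list summed to 253 to 383 FPKM in FT and 323 to 410 FPKM in FA (exact permutation p = 0.3). The median was -0.378 at ZT15, -0.54 at ZT18 and -0.064 at ZT21, where 6 of 12 were higher in FT. The neutrophil protein S100a9 had 1.99, 1.80 and 1.97 FPKM in FT and 3.50, 3.42 and 3.60 in FA, and the macrophage receptor Csf1r 9.71, 11.9 and 12.6 in FT and 12.7, 17.1 and 14.3 in FA, both without overlap. The T cell gene Cd3e was at 0.549 FPKM or less. All 11 stellate cell and matrix markers tested were lower, with a median of -0.215 and sums of 133 to 143 FPKM in FT and 145 to 174 FPKM in FA (exact permutation p = 0.1). Their median was -0.016 at ZT15, -0.412 at ZT18 and -0.063 at ZT21. The FA library of ZT18 was the highest of the 6 for 8 of these 11 (72.7%) and for 7 of 12 immune markers (58.3%), against 12.4% of all genes. The FA library of ZT18 held the most collagen, with Col3a1 at 2.32, 2.51 and 2.20 FPKM in FT and 2.09, 6.17 and 2.07 in FA. Endothelial markers summed to 113 to 126 FPKM in FT and 118 to 136 FPKM in FA (p = 0.2), and erythroid markers to 260 to 962 FPKM in FT and 358 to 1820 FPKM in FA (p = 0.4, exact permutation tests). Bile duct markers summed to 20.9 to 25.3 FPKM in FT and 22.6 to 31.9 FPKM in FA, and adipocyte markers to 1.97 to 2.25 FPKM in FT and 1.66 to 2.75 FPKM in FA. None of these markers was called, and their part in the results for Timd4, the acute phase and the immediate early genes was not tested. In bulk RNA, fewer cells of a type and less RNA per cell cannot be told apart.

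The feeding difference at night was set against that of the light phase in the same genotype, from 3 FT and 3 FA libraries of ZT3, ZT6 and ZT9. In the light phase 38 genes were called (0.382%), 11 higher in FT (0.111%) and 27 lower (0.272%). The difference of the differences passed for 25 genes (0.251%), 13 with a higher value at night (0.131%) and 12 with a lower one (0.121%), and 859 had an unadjusted p under 0.05 (8.64%). With each library scaled to the same FPKM sum these were 29 and 15. The count was 5 without ZT21 and 11 without ZT18 of the night. Pttg1 and 4833420G17Rik were among the 25: Pttg1 was at 1.43 at night and -1.0 ± 0.24 in the light phase (dark minus light 2.43 ± 0.34, adjusted p = 0.00118), and 4833420G17Rik at -1.29 and 0.03 (-1.32, adjusted p = 0.00142). In most of the named genes the light phase carried the larger difference. Pcp4l1 had 112, 36.5 and 35.3 FPKM in FT and 61.5, 42.9 and 12.6 in FA at night (0.68 ± 0.33), and 5.56, 5.74 and 24.0 in FT and 44.8, 62.9 and 56.5 in FA in the light phase (-2.42, adjusted p = 0.000892). The dark minus light value was 3.10 ± 0.47 (adjusted p = 0.00166).

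Fat genes were among those that differed by phase. Acaa1b, peroxisomal thiolase and a PPAR alpha target, had 372, 288 and 200 FPKM in FT and 202, 141 and 148 in FA at night (0.78 ± 0.52), and 15.6, 136 and 69.2 in FT and 372, 442 and 281 in FA in the light phase (-2.73, adjusted p = 0.0135). The dark minus light value was 3.51 ± 0.74 (adjusted p = 0.0352). Fitm1, which helps to form lipid droplets, was at 0.50 at night and -1.87 in the light phase (2.36 ± 0.47, adjusted p = 0.0259). The opposite pattern was seen in Tff3, whose FT libraries had 3.53, 98.5 and 148 FPKM and FA libraries 4.12, 0.160 and 0.525 FPKM in the light phase (dark minus light -8.15 ± 1.55, adjusted p = 0.0171). Estrogen sulfotransferase, Sult1e1, had 0.902, 3.37 and 1.17 FPKM in FT and 2.15, 42.5 and 12.9 in FA at night, and 17.2, 3.20 and 25 in FT and 0.630, 0.382 and 0.958 in FA in the light phase (-5.18 ± 0.91, adjusted p = 0.0102). Nicotinamide methyltransferase Nnmt and Lcn2 went the same way (-5.37 ± 1.00, adjusted p = 0.0149, and -7.81 ± 1.70, adjusted p = 0.042), with 281 and 3292 FPKM in the FT library of ZT3. That library also had Saa1 at 41908 FPKM, against 81.6 at ZT6 and 3147 at ZT9 in FT. Its FPKM sum was 642583, against 421056 at ZT6 and 462211 at ZT9. The part of this library in the phase differences was not tested. Ddah1, Cyp2c69 and Slc43a1 also passed, at 2.71, -2.67 and -1.62.

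**Figure D5:**
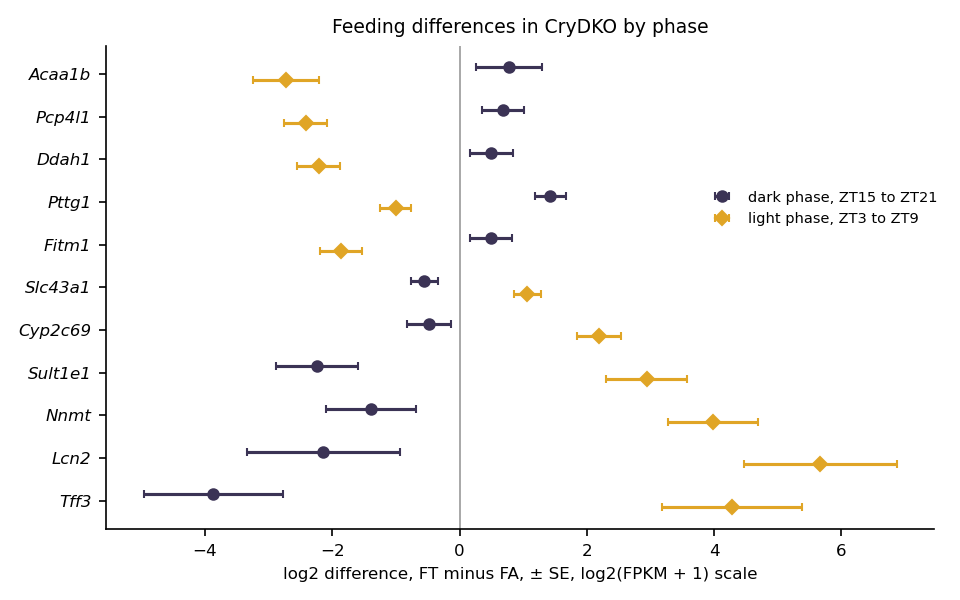
Log2 difference (FT minus FA, log2(FPKM + 1) scale) in CryDKO in the dark phase (ZT15 to ZT21) and the light phase (ZT3 to ZT9), 3 against 3 libraries each, with bars of 1 SE, for 11 genes whose difference differed between phases. Each has the opposite sign in the 2 phases, from Tff3 (-3.87 and 4.29) to Acaa1b (0.78 and -2.73).

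ReverbLDKO was sampled at the same times, with 3 FT and 3 FA libraries at night, and 17 genes were called there (0.171%), 1 higher in FT (0.0101%) and 16 lower (0.161%). The feeding difference of CryDKO minus that of ReverbLDKO passed for 2 genes (0.0201%), and 495 had an unadjusted p under 0.05 (4.98%). The named one was Cyp2a4, a female-biased cytochrome of a near-identical family, with 0.373, 0.243 and 0.0706 FPKM in FT and 0.266, 0.0742 and 0.188 in FA of CryDKO, against 0.227 to 1.36 in FT and 92.9 to 173 in FA of ReverbLDKO. CryDKO had hardly any of it under either feeding. Cyp2a4 reached the mean of 1 FPKM needed for the test through the FA libraries of ReverbLDKO, so the difference of 6.52 ± 0.88 (adjusted p = 0.000306) restates its level in ReverbLDKO and shows no feeding effect in CryDKO. The other was a predicted gene. Neither CryDKO gene called at night passed here: Pttg1 differed by 1.54 ± 0.34 (adjusted p = 0.159) and 4833420G17Rik by -0.94 ± 0.20 (adjusted p = 0.123). The fatty acid synthesis list had a median of 0.534 in CryDKO and -0.474 in ReverbLDKO, and no member's difference passed.

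WT was sampled at ZT16 and ZT20, with 4 FT and 4 FA libraries at night, so the times are not those of CryDKO. There 4927 genes were called (49.5%), 1947 higher in FT (19.6%) and 2980 lower (30.0%). The difference between the CryDKO and WT feeding effects passed for 2633 genes (26.5%), 1782 with a higher value in CryDKO (17.9%) and 851 with a lower one (8.56%), and for 1185 and 934 with libraries scaled to the same sum. The WT groups also differed in library properties: the GC slope was -1.049 to -0.245 in FT and 0.028 to 0.372 in FA, and mitochondrial transcripts took 7.11 to 13.8% in FT and 4.38 to 7.28% in FA. In WT, feeding and this library difference cannot be told apart, and with a correction for GC content and length the count was 1036, 600 higher and 436 lower. It was 1533 without ZT15 and 1599 without ZT21 of CryDKO.

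Scand1, Ccdc85b, Fbxl15, Tpgs1, Rnaseh2c, Hnrnpu, Hmg20b and Zfp771 had the smallest p in this comparison, and their CryDKO differences were within 0.34 of 0. Scand1, for instance, was at -0.34 ± 0.24 in CryDKO and -4.58 ± 0.21 in WT (4.24 ± 0.32, adjusted p = 2e-09), and at 1.81 after the correction. Of the lipid genes, Thrsp was at 1.17 in CryDKO and -1.65 in WT (2.82 ± 0.64, adjusted p = 0.00241) and Fasn at 0.96 in CryDKO and -1.41 in WT (2.37 ± 0.76, adjusted p = 0.0223). After the correction Thrsp was at 2.32 (adjusted p = 0.0111), and Fasn at 1.68 no longer passed (adjusted p = 0.0749). In the fatty acid synthesis list the difference passed for 5 of 18 genes with a higher value in CryDKO, where 17.9% of all genes did. It passed for none with a lower value. After the correction it passed for 2 of the 18, both with a higher value. Calls over all genes also fell with the correction, as given above. The share over all genes was not computed there, so nothing about the list is read from this count. Pttg1 was at 1.43 in CryDKO and -0.56 in WT (1.99 ± 0.32, adjusted p = 0.000158), and 4833420G17Rik at -1.29 and 0.20 (-1.50 ± 0.18, adjusted p = 1.06e-05). After the correction these differences were 1.92 and -1.23 and both still passed.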

How the data were processed

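The authors deposited FPKM values per gene. Per the submitters' processing notes, STAR, featureCounts and DESeq2 were used with GRCm38, but no version or strand setting is stated, and reads of overlapping or antisense genes cannot be told apart. Per the labels' protocols the libraries were stranded mRNA libraries of total liver RNA.

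FPKM sums differed between libraries (385770 to 1095900). Of 45808 deposited genes, 27 with symbols turned into dates were dropped. Depth was estimated from low values: 83.962 to 88.023% of values up to 20 reads were within 0.1 of a whole read, for 9.099 to 35.95 M reads per library. Rounded reads recovered with this depth were used only in the limma-voom alternative. Intervals on single values were not computed.

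limma 3.58.1 (R 4.3.3) was fitted with a mean-variance trend to log2(FPKM + 1) of all 67 libraries for the 9944 genes with a mean of 1 FPKM or more. It had a level per genotype and time and a feeding effect per genotype and phase, and left 23 residual degrees of freedom. P-values were two-sided and adjusted by Benjamini-Hochberg over all genes, and a gene was called under 0.05. A fold change on this scale understates the change of low genes. Summed lists used an exact permutation test (scipy 1.17.1), which cannot go below 0.1 with 3 against 3. Scripts were tested on simulated data.

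Genes named were those called with a mean of 5 FPKM or more, filled to 12 per direction with non-overlapping genes of unadjusted p under 0.01, up to 8 per difference between contrasts, and up to 5 per list. The members and lists were chosen with earlier results of these data known. Alternatives were other pseudocounts, filters, scalings, weights, blocks, a GC and length correction, limma-voom, fewer libraries and leaving out each of the 6 libraries. Some genes that this rule names are not reported here.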

Additional observations from a re-analysis of the deposited data

Results flagged for a closer look

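The feeding difference of CryDKO differed between the dark and light phases for 25 genes. Of these, 8 named ones had dark minus light differences (log2) of -8.15 for Tff3, 2.43 for Pttg1, 3.10 for Pcp4l1, -5.18 for Sult1e1, 2.71 for Ddah1, -2.67 for Cyp2c69, -5.37 for Nnmt and -1.62 for Slc43a1.

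It differed between CryDKO and ReverbLDKO at night for 2 genes, with a CryDKO minus ReverbLDKO value of 6.52 for Cyp2a4. That gene was under 0.4 FPKM in all 6 CryDKO libraries and entered the test through the ad libitum ReverbLDKO libraries, so the value restates its level there.

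It differed between CryDKO and WT at night for 2633 genes. The CryDKO minus WT values were 4.24 for Scand1, 3.54 for Ccdc85b, 3.31 for Fbxl15, 4.02 for Tpgs1, 3.36 for Rnaseh2c, -1.42 for Hnrnpu, 1.96 for Hmg20b and 2.90 for Zfp771. WT was sampled at other times and its groups differed in GC slope. With the GC and length correction these values were 1.81, 2.99, 1.42, 1.98, 2.13, -0.79, 0.72 and 0.61 in the same order, and Zfp771 no longer passed (limma adjusted p = 0.123).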

How the results depend on the processing

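The count of genes called for feeding at night in CryDKO, 2, was also 2 with a pseudocount of 0.1, both scalings, the GC and length correction and limma-voom on recovered reads, though voom called Tcp11l2 in place of Pttg1. It was 62 without a filter, 52 with library weights, 8 with a filter on the mean of the 6 libraries, and 0 with the 16 CryDKO libraries alone or the 6 alone, with or without a time block. Leaving out 1 library gave 1 to 4 genes, and 0 to 2 with the 6 alone, an alternative chosen after seeing the data. Leaving out either library of a time also drops its pair.

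The dark minus light count, 25, was 117 without a filter and 44 with the same FPKM sum. It was 258 with library weights and 81 with the GC and length correction. With 1 of the 6 night libraries of CryDKO left out it was 5 to 24 (11 without ZT18). Libraries of the light phase were not left out in turn. The CryDKO minus ReverbLDKO count, 2, was 8 with a pseudocount of 0.1, 17 without a filter, 5 with the same sum, 210 with weights, 10 with the correction, 4 with voom and 1 with the 6-library filter. The CryDKO minus WT count, 2633, was 1036 with the correction and 1533 to 2143 with 1 library left out (1599 without ZT21).

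Every CryDKO library is numbered replicate 1, so the number cannot pair or separate them, and the replicate block used the numbers of WT. With it these counts were 2, 42, 9 and 3330. The cause of these changes was not tested. Of the values of single genes under the alternatives listed in advance, 618 kept their side of the threshold, 34 lost a call, 13 gained one and none changed sign. With 3 libraries a group and a median SE of 0.214 (log2), small differences were not detectable.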
